A study of Mus musculus with 18 samples.

Results

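The 3 control clones of mouse oligodendrocyte progenitor cells (OPCs), named D7, D3 and E8, were compared between the OPC stage and 2 days of differentiation. Members were chosen by their labels, as the control libraries of those stages paired by clone, which gave 6 of the 18 libraries in the series. Each clone is a line grown from primary neural stem cells and gave 1 library per stage, so the clones are the replicates. At the OPC stage (day 0) the cells were kept in growth medium with PDGF-AA, the ligand that keeps OPCs dividing. At day 2 in vitro (DIV2) they were in oligodendrocyte differentiation medium with the thyroid hormone T3, labelled as 40 µg/ml, a unit that could not be checked here. Later control libraries (DIV4, the same medium and T3 at day 4) and the Thap1 null clones 3F, D6 and 7F at both stages entered only as side comparisons. Growth factor, medium and hormone changed together between the stages, so their parts cannot be told apart. How the null clones were made, and the ages or sexes of the source animals, are not given in the sources used here. Thap1, the gene targeted in the null clones, was at 15.5 to 19.8 rescaled TPM in control and 2.22 to 3.41 in null OPCs, and at 8.37 to 12.3 in control and 1.502 to 3.04 in null libraries at DIV2 (scale of all 18 libraries).

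OPCs are the dividing glial precursors of the central nervous system. They are held in the cycle by PDGF through the receptor PDGFRA and the ERK kinase cascade, and they carry the proteoglycan NG2 (Cspg4). On mitogen withdrawal and with thyroid hormone they leave the cycle, pass through a premyelinating stage marked by Bcas1, Enpp6 and Gpr17, and switch on the myelin genes under the transcription factors SOX10 and MYRF. Myelin is rich in cholesterol, galactolipids and very long-chain fatty acids, so lipid synthesis belongs to the same programme.

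Levels below are TPM (transcript abundance per length, as a share of the library) of protein-coding genes, rescaled so that the median gene is level between libraries, and are listed in the clone order D7, D3, E8. Changes are log2 differences, DIV2 minus OPC within a clone, on log2(rescaled TPM + 1), a scale that understates the change of low genes. A gene was called when its adjusted p in limma, with clone as a block, was under 0.05. Coding genes held 5.05% to 9.003% of the deposited TPM in the OPC libraries and 29.4% to 31.8% at DIV2. The coding features Lars2 and AA474408 alone took 17.5% to 52.1% of the coding TPM in OPCs and 0.0121% to 0.0398% at DIV2. In the null OPC libraries coding genes held 19.1% to 28.4% of TPM. The rescaling treats the median gene as level, and the read depth behind these TPM is unknown. Scaling to an equal coding total instead moved the median of all genes from -0.06 to 0.63, and to 0.098 once Lars2 and AA474408 were left out.

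The OPC library of clone D3 stood apart from the other OPC libraries in mitosis genes and in some myelin genes. Its summed level of 44 mitosis genes was 449 against 4900.0 in D7 and 4282 in E8, and Mki67, the standard marker of cycling cells, stood at 5.27 against 100.4 and 127. The same library already held 319 of Mbp, where D7 had 27.6 and E8 13.2. Over all genes the log2 levels of D3 OPCs correlated with its own DIV2 library at r = 0.907, and those of D7 and E8 with theirs at 0.803 and 0.758 (across genes, which are not independent replicates). The 3 DIV2 libraries correlated with each other at 0.961 to 0.971. Among the OPC libraries r was 0.9 for D3 and D7, 0.904 for D7 and E8, and 0.86 for D3 and E8. The E8 OPC library differed in another way. Coding genes held 5.05% of its TPM, against 8.51% in D7 and 9.003% in D3. Lars2 and AA474408 took 52.1% of its coding TPM, against 23.8% in D7 and 17.5% in D3. The changes of D3 were narrower, with an SD over genes of 0.885 against 1.34 in D7 and 1.42 in E8. For lists with 3 or more calls in a direction, the counts below are therefore given with and without D3, and also without D7 and without E8, each of which leaves D3 with 1 other clone. In bulk RNA, fewer cells of a type and less RNA per cell cannot be told apart.

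**Figure D1:**
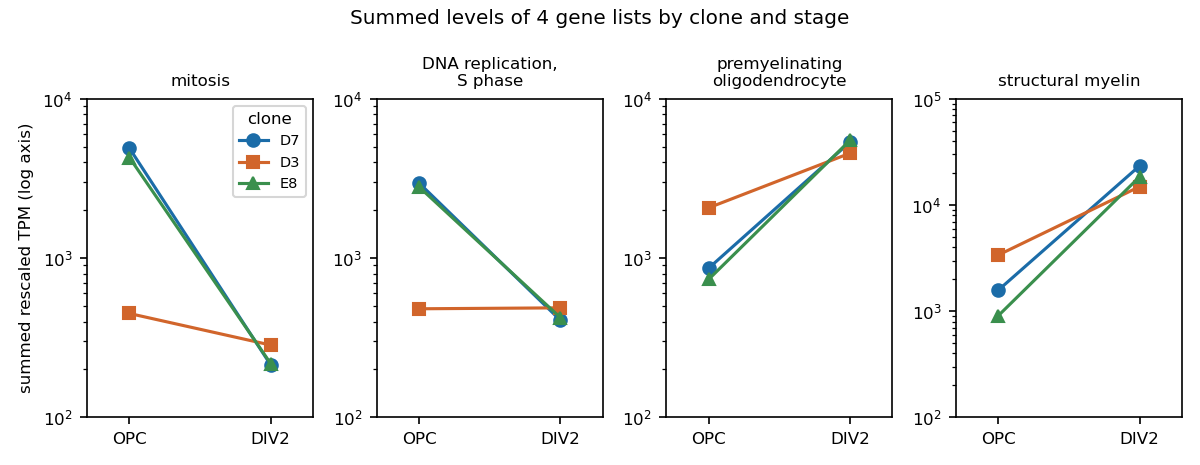
Summed rescaled TPM (log axis) of the mitosis, S phase, premyelinating and myelin gene lists in each clone at the OPC stage and at DIV2, with 1 point per library and 1 line per clone. The D3 line starts at 449 for mitosis genes, where D7 and E8 start at 4900.0 and 4282, and all clones end between 214 and 285.

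Of 12095 coding genes tested, 2231 (18.4%) were called: 1141 (9.43%) were higher and 1090 (9.01%) lower at DIV2. Of the calls, 1804 reached an absolute log2 change of 1. The levels did not overlap between stages for 21% of the tested genes in the higher direction and 23.3% in the lower. Without D3, 1859 genes (15.4%) were called higher and 2290 (19%) lower, and 2189 of the 2231 calls were among them with the same sign. Without D7 the calls numbered 211 and without E8 790. The shares over all genes, with all clones and without D3, are the background for the list counts below. Some genes belong to several lists, such as Mag and Nfasc (myelin and adhesion) and Cspg4 (OPC and matrix). The list counts are therefore not separate. Under an equal coding total without Lars2 and AA474408, chosen after seeing the data, 1640 genes were called higher and 768 lower, so that 68.1% of calls were higher against 51.1% above. With Lars2 and AA474408 kept in that total, 3877 were called higher and 506 lower (88.5% higher), and with no rescaling 98.9% of 9513 calls were higher. Of the 2231 calls, 345 share at least 10% of their 31-base words with other genes, so that reads could be split between copies, and such genes are marked as uncertain below. For 9 calls no such share was available.

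Among called genes with a mean of at least 10 rescaled TPM at the higher stage, the 10 largest rises held 3 genes of the myelin list (Mag, Mog and Mbp), 2 of the premyelinating list (Tmem163 and Enpp6), and Rasgef1b, Kcnj4, Kcna1, Col20a1 and Grm7. Mag (ENSMUSG00000036634, chromosome 7, 30899176 to 30914873, minus strand on GRCm38), the myelin-associated glycoprotein of the inner myelin membrane, stood at 3.15, 7.61 and 1.902 in OPCs and 698, 656 and 842 at DIV2. Its change was 7.28 (SE 0.37, adjusted p = 0.00332). Tmem163, a zinc transporter, stood at 0.377, 2.68 and 0 in OPCs and 179.9, 233 and 269 at DIV2, a change of 7.04 (SE 0.41, adjusted p = 0.00456). Every DIV2 library was above every OPC library for both genes. Rasgef1b, an exchange factor for small GTPases, rose by 6.597 (SE 0.65, adjusted p = 0.0072) from 2.28, 19.7 and 2.21 to 709, 449.9 and 616. The potassium channel gene Kcnj4 was listed at 0 in all 3 OPC libraries and at 60.1, 77.7 and 159.9 at DIV2, so no fold is given. Col20a1, a collagen gene, moved from 4.14, 12.2 and 4.34 to 498, 522 and 330.4 (log2 change 5.96, SE 0.27, adjusted p = 0.00332). In these 5 genes the D3 OPC level was the highest of the 3, or tied at 0.

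Among the 10 largest falls were Lars2, AA474408 and several cell cycle genes. Lars2, annotated as the mitochondrial leucyl-tRNA synthetase, fell by 11.74 and AA474408 by 9.25. Together they took 17.5% to 52.1% of the coding TPM in OPCs, where coding genes held 5.05% to 9.003% of all TPM. What their reads stem from was not tested, so these falls are not read as changes of the mRNAs they are named for. Gm11175, a predicted gene, was at 27.5, 54.5 and 92.4 in OPCs and under 0.01 in every DIV2 library. The other large falls were in Hist1h1b, a linker histone made in S phase, in En1, a homeobox gene, and in the mitotic genes Birc5, Ube2c, Knstrn, Fam64a and Kif11. En1 stood at 27.4, 27.7 and 69.5 in OPCs and 0.382, 0.947 and 0.939 at DIV2, a change of -4.48 (SE 0.34, adjusted p = 0.00488). Hist1h1b stood at 1737, 216 and 963 in OPCs and 10.6, 26.8 and 10.7 at DIV2, a change of -5.52 (SE 0.78, adjusted p = 0.0128). D3 started at the level of D7 in En1, and far below both other clones in Hist1h1b.

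**Figure D2:**
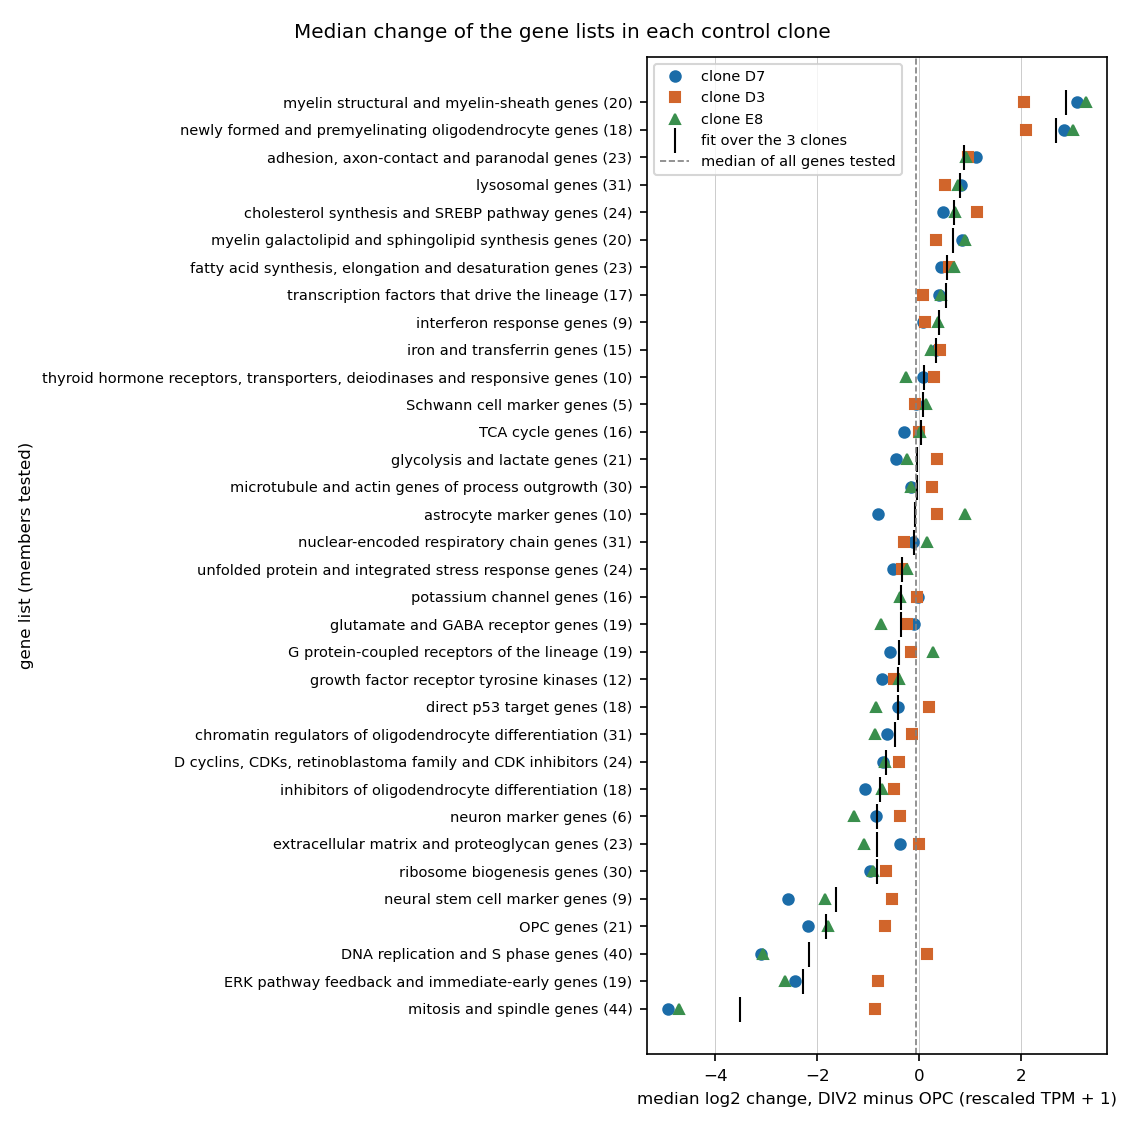
Median log2 change (DIV2 minus OPC, x axis) over the tested members of 34 gene lists with at least 5 tested members, in each clone (points) and in the fit over the 3 clones (black ticks), with the median of all genes tested as a dashed line. Myelin and premyelinating genes lie at the top near 3, and mitosis, ERK feedback and S phase genes at the bottom. The D3 point of the S phase list sits at 0.16 where those of D7 and E8 sit at -3.11 and -3.07.

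OPC genes fell in part. Of 21 tested members of the OPC list, 11 were called lower and 2 higher (median -1.83, against -0.06 over all genes), and the lower calls numbered 3 without D7, 14 without D3 and 9 without E8. Pdgfra (ENSMUSG00000029231, chromosome 5, 75152292 to 75198215, plus strand), the PDGF receptor, stood at 404, 344 and 396 in OPCs and 19.7, 81.1 and 15.8 at DIV2. It fell by 3.64 (SE 0.49, adjusted p = 0.0117) and was lower at DIV2 in each clone, and D3 kept the highest DIV2 level. Cspg4 (ENSMUSG00000032911, chromosome 9, 56865033 to 56899870, plus strand), the NG2 proteoglycan, went from 103, 43.6 and 94.8 to 2.96, 4.92 and 2.001 (log2 change -4.21, SE 0.44, adjusted p = 0.00737). Ptprz1, a receptor phosphatase of progenitors, went from 180.1, 133 and 215 to 26.3, 48.9 and 47.8 (log2 change -2.100, SE 0.27, adjusted p = 0.011). The stages did not overlap for any of these 3. Rlbp1, a retinoid-binding protein, changed by -3.79 (SE 0.34, adjusted p = 0.00611), Pcdh15, a protocadherin, by -3.498 (SE 0.25, adjusted p = 0.00465), and the proteoglycan gene Cspg5 by -2.403 (SE 0.304, adjusted p = 0.0104). The 2 members called higher were Tnr, the matrix protein tenascin-R, which went from 72.2, 157 and 73.8 to 204, 212 and 247, and Gpr37l1, an orphan receptor, which went from 16.8, 145 and 41.5 to 63.7, 303 and 325. Sapcd2, a spindle-orientation gene, stood at 53.5, 4.85 and 82.4 in OPCs and 0.847, 1.59 and 0.895 at DIV2 (log2 change -3.84, SE 0.83, adjusted p = 0.0317). Vcan, the proteoglycan versican, was not called (log2 change -0.53, SE 0.29, adjusted p = 0.242). Emid1, another member of the list, was listed at 0 in all 6 libraries, so it was not seen in either stage.

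Some neural stem cell genes fell too: of 9 tested, 4 were called lower and none higher, and the lower calls numbered 0 without D7, 6 without D3 and 3 without E8, with 1 called higher without D3. Prom1, a membrane protein of stem cells, stood at 2.07, 0.611 and 0.611 in OPCs and 7.72, 1.38 and 34.9 at DIV2 and was not called (log2 change 2.18, SE 0.76, adjusted p = 0.0983). Nes, the intermediate filament nestin, stood at 134, 37.7 and 131 in OPCs and 2.79, 7.28 and 4.58 at DIV2 (log2 change -3.98, SE 0.56, adjusted p = 0.0128). Fabp7, a brain fatty acid-binding protein, stood at 1721, 3151 and 2473 in OPCs and 72.5, 443 and 668 at DIV2 (log2 change -3.09, SE 0.49, adjusted p = 0.0164). Vim, the filament vimentin, fell by 3.29 (SE 0.74, adjusted p = 0.0343). On the log scale its DIV2 levels of 34.6, 469 and 314 spread more than its OPC levels of 1669, 1216 and 2438. The fourth was Hes5, described with the inhibitors.

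Most premyelinating genes rose. Of 18 tested, 13 were called higher and none lower, with a median change of 2.68 (2.85 in D7, 2.09 in D3 and 3.02 in E8); the higher calls numbered 6 without D7, 14 without D3 and 10 without E8, with 1 called lower without D3. Enpp6 (ENSMUSG00000038173, chromosome 8, 46986887 to 47096762, plus strand), a choline phosphodiesterase that marks newly forming oligodendrocytes, stood at 1.74, 61.2 and 0.594 in OPCs and 467, 459 and 591 at DIV2. The D3 OPC library was far above the other OPC libraries and still below every DIV2 library. The change was 6.28 (SE 1.03, adjusted p = 0.0174), and 7.92 (adjusted p = 7.91e-06) without D3. Bcas1, a marker of early myelinating cells, went from 383, 971 and 224 to 2154, 1779 and 2174 (log2 change 2.21, SE 0.45, adjusted p = 0.028). Gpr17, a receptor of the committed precursor, stood at 165, 494 and 72.1 in OPCs and 296, 359 and 307 at DIV2 and was not called (log2 change 0.82, SE 0.46, adjusted p = 0.247): it rose in D7 and E8 and was lower at DIV2 in D3. Without D3 its change was called, at 1.45 (adjusted p = 0.00687). Bmp4 and Tcf7l2 of the list were not called either, at -1.201 (SE 0.39, adjusted p = 0.0806) and 0.53 (SE 0.295, adjusted p = 0.247). Pik3r3, a PI3-kinase subunit, Sirt2, a deacetylase of myelin, and Itpr2, a calcium channel of the endoplasmic reticulum, were called with changes of 3.47, 3.03 and 2.93. Cnksr3, a scaffold protein, and Gpr37, an orphan receptor of maturing cells, changed by 3.91 (SE 0.47, adjusted p = 0.00951) and 3.61 (SE 0.29, adjusted p = 0.00494).

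Most myelin genes rose as well. Of 20 tested members of the myelin list, 16 were called higher and none lower, with a median of 2.88 (3.09 in D7, 2.05 in D3 and 3.27 in E8), and 15 had stages that did not overlap. Without D3 the count of calls was 16, without D7 7 and without E8 12. Over all genes 9.43% were called higher (15.4% without D3), and 21% were higher at DIV2 with no overlap between stages. Another 4 listed genes, Ermn, Hapln2, Aspa and Ndrg1, were under the filter of a mean of 1 rescaled TPM. Mbp, the basic protein that compacts myelin, stood at 27.6, 319 and 13.2 in OPCs and 5574, 4253 and 3014 at DIV2. D3 OPCs lay far above the other OPC libraries, and the stages did not overlap. The change was 6.35 (SE 0.79, adjusted p = 0.00994), and 7.65 (adjusted p = 9.70e-07) without D3.

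Cnp, an enzyme of uncompacted myelin, stood at 452, 887 and 126 in OPCs and 3832, 1756 and 2691 at DIV2 (log2 change 2.82, SE 0.61, adjusted p = 0.0319). Mog, on the outer surface of myelin, stood at 0.481, 0 and 0 in OPCs and 199, 30.5 and 146 at DIV2 (log2 change 6.42, SE 0.49, adjusted p = 0.00482), and D3 reached the lowest DIV2 level. Mobp, a late myelin gene, was near 0 in OPCs and at 7.41, 7.89 and 5.22 at DIV2 (log2 change 2.700, SE 0.43, adjusted p = 0.0161). These levels lay far below those of Mbp or Cnp at DIV2, on the same scale per length. Cldn11, the tight-junction protein of myelin, went from 508, 883 and 245 to 4346, 3170.1 and 3528 (log2 change 2.93, SE 0.39, adjusted p = 0.0117). Gjb1, a connexin, was not called (log2 change 0.36, SE 0.34, adjusted p = 0.48). Mal, Apod and Car2, genes of mature oligodendrocytes, were not called, at 1.08, 0.63 and 0.81. Nfasc, the adhesion protein of the paranode, rose by 3.93 (SE 0.33, adjusted p = 0.00526). Trf, transferrin, rose by 4.26 (SE 0.56, adjusted p = 0.0112), but it shares 63.8% of its 31-base words with other genes and is uncertain.

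**Figure D3:**
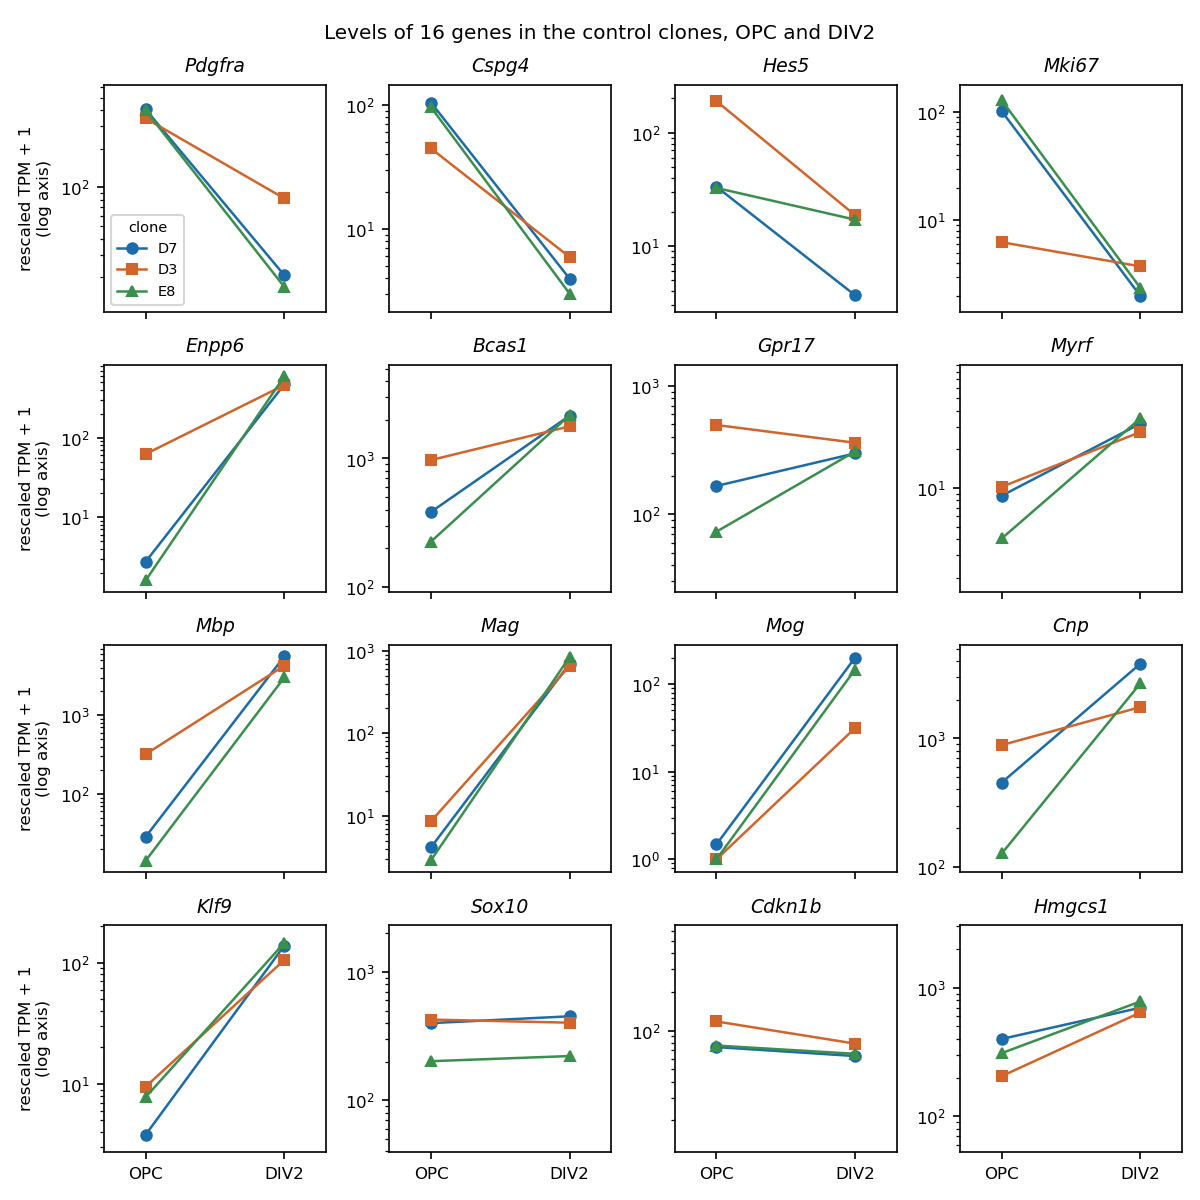
Rescaled TPM + 1 (log axis, whose range differs by panel) of 16 genes at the OPC stage and DIV2, with 1 line per clone. Mag, Mog and Klf9 climb steeply in every clone, Sox10 and Cdkn1b stay nearly level, and the D3 line (squares) starts apart from the others in Mki67, Enpp6, Mbp and Gpr17.

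The promoter of Mog is shown because myelin genes moved together and MYRF is the factor known to bind many of them. The 150 bases before its start, from RefSeq on GRCm38.p6, hold one match to the MYRF words CTGGCAC and CTGGTAC (either strand), in capitals:
Mog (chr17:37023399-37023548, minus strand): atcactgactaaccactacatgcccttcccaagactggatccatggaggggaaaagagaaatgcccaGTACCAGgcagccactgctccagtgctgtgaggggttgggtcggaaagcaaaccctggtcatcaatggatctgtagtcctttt
In the 250 bases before the start, 5 of 26 promoters of 18 myelin genes held such a word (19.2%), against 5.93% of 32851 promoters of all genes and 5.5% of those of tested genes. Several promoters of a gene can overlap: those of Mag hold the same word and were counted separately. Hapln2, also counted, was under the filter. A match is a description of letters.

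Transcription factors that drive the lineage moved in both directions. Of 17 tested drivers, 5 were called higher and 3 lower, against 9.43% of all genes called higher and 9.01% lower. Myrf, which switches on myelin genes, stood at 7.71, 9.21 and 3.05 in OPCs and 30.7, 26.3 and 33.9 at DIV2 (log2 change 2.13, SE 0.37, adjusted p = 0.0198). Zfp536 and St18, zinc-finger genes, rose by 3.59 (SE 0.35, adjusted p = 0.00675) and 2.91 (SE 0.41, adjusted p = 0.0127), and Zfp488 by 1.09 (SE 0.19, adjusted p = 0.0198). Sox10, which acts with MYRF, was not called: it stood at 398, 424 and 201 in OPCs and 449.8, 401 and 220.1 at DIV2, a change of 0.076 (SE 0.17, adjusted p = 0.769). The early factors Olig1 and Olig2 fell. Olig2 stood at 456, 229 and 519 in OPCs and 161, 133 and 157 at DIV2 (log2 change -1.33, SE 0.23, adjusted p = 0.0194), and Olig1 changed by -1.32 (SE 0.19, adjusted p = 0.013). Olig2 stayed well expressed in all DIV2 libraries. Sox8 and Nkx2-2 were not called: Sox8 stood at 14.5, 193 and 83.4 in OPCs and 122, 183 and 277 at DIV2 and Nkx2-2 at 2.304, 32.6 and 18.97 in OPCs and 2.88, 13.5 and 7.85 at DIV2. Calls for drivers in the higher direction numbered 2 without D7, 7 without D3 and 4 without E8. In the lower direction they numbered 0 without D7, 3 without D3 and 0 without E8. The shares over all genes without D3 were 15.4% higher and 19% lower, and the lower calls of the drivers were near theirs.

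Of 18 tested inhibitors of differentiation, 6 were called lower and none higher (median -0.77), and the lower calls numbered 0 without D7, 10 without D3 and 3 without E8, with 1 called higher without D3. Hes5, a Notch effector, stood at 32.4, 188 and 31.5 in OPCs and 2.69, 17.7 and 16.1 at DIV2 (log2 change -2.48, SE 0.496, adjusted p = 0.0264), and the D3 OPC library was the highest. Id2 and Id3, which sequester basic helix-loop-helix factors, changed by -1.39 (SE 0.298, adjusted p = 0.0308) and -1.54 (SE 0.32, adjusted p = 0.0285). Id3 differed more among clones than between stages, with 8.76, 341 and 68.2 in OPCs and 0.941, 119.6 and 39.4 at DIV2. Egr1, an immediate-early gene, changed by -3.23 (SE 0.42, adjusted p = 0.0107), Sox6, a repressor of myelin genes, by -1.06 (SE 0.197, adjusted p = 0.0227), and Ezh2, the H3K27 methyltransferase, by -0.89 (SE 0.18, adjusted p = 0.026). Notch1, the receptor itself, stood at 48.8, 29.1 and 52.7 in OPCs and 8.796, 23.6 and 13.5 at DIV2 and missed the threshold (log2 change -1.51, SE 0.41, adjusted p = 0.056); without D3 it was called, at -2.12 (adjusted p = 7.14e-04).

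Genes of the thyroid hormone response were of interest because T3 was added at this step. Of 10 tested genes of 20 listed, 3 were called higher and 1 lower, with higher calls of 2 without D7, 3 without D3 and 2 without E8. Over all genes 9.43% were called higher and 9.01% lower, so the lower count is near its share. Klf9 (ENSMUSG00000033863, chromosome 19, 23141226 to 23168134, plus strand), a zinc-finger gene and classical direct target of the hormone receptor, stood at 2.82, 8.505 and 6.79 in OPCs and 137, 104 and 145 at DIV2. All clones rose from single digits to over 100, a change of 4.29 (SE 0.34, adjusted p = 0.00494). Hr, the corepressor hairless and another direct target, stood at 4.11, 5.84 and 5.66 in OPCs and 58.4, 47.7 and 76.1 at DIV2 (log2 change 3.301, SE 0.25, adjusted p = 0.00465). Thra, the main receptor of neural cells, rose from 102, 181 and 51.9 to 468, 293 and 391 (log2 change 1.92, SE 0.41, adjusted p = 0.0311). Thrb, the other receptor gene, was under the filter. The amino acid carrier gene Slc7a5, whose product can also carry thyroid hormone, fell from 51.4, 59.3 and 42.1 to 1.85, 8.104 and 4.42 (log2 change -3.31, SE 0.34, adjusted p = 0.0073). Dio3, which inactivates T3, was listed at 0 in all 6 libraries.

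Some growth factor receptor genes fell. Of 12 receptor tyrosine kinases tested, 4 were called lower and none higher, with lower calls of 0 without D7, 5 without D3 and 2 without E8, and higher calls of 0 without D7, 1 without D3 and 1 without E8. The list's median was -0.41; it turned to 0.18 under an equal coding total, where the median of all genes was 0.63. Beside Pdgfra these were Erbb3, a neuregulin receptor, at 53.01, 28.2 and 20.1 in OPCs and 3.41, 5.95 and 0.807 at DIV2 (log2 change -3.08, SE 0.38, adjusted p = 0.00984), Fgfr1 (log2 change -1.96, SE 0.35, adjusted p = 0.0208) and Kit (log2 change -1.87, SE 0.33, adjusted p = 0.0205). Fgfr2, the FGF receptor of maturing oligodendrocytes, stood at 0.2997, 5.59 and 8.69 in OPCs and 28.2, 28.03 and 14.1 at DIV2, and was not called (log2 change 2.42, SE 0.703, adjusted p = 0.0639). Insr and Erbb4 changed by 0.034 (SE 0.26, adjusted p = 0.937) and -0.24 (SE 0.28, adjusted p = 0.566).

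Of 19 tested feedback and immediate-early genes of the ERK pathway, 12 were called lower and none higher, with a median of -2.29 (-2.44 in D7, -0.81 in D3 and -2.62 in E8); the calls numbered 1 without D7, 16 without D3 and 5 without E8. Dusp6, the phosphatase that shuts off ERK, stood at 51.3, 29.9 and 132 in OPCs and 2.203, 10.7 and 6.47 at DIV2 (log2 change -3.196, SE 0.57, adjusted p = 0.0205). E8 held the highest OPC level of Dusp6, and the stages did not overlap. Spry4 and Spred2, feedback inhibitors, changed by -3.12 (SE 0.71, adjusted p = 0.0356) and -2.56 (SE 0.36, adjusted p = 0.0126). Etv1 and Etv4, ETS factors induced by ERK, changed by -2.56 (SE 0.37, adjusted p = 0.0135) and -2.78 (SE 0.71, adjusted p = 0.047), and Etv5, uncertain at 30.3% shared 31-base words, by -3.47 (SE 0.74, adjusted p = 0.0309). Myc stood at 116, 113 and 104 in OPCs and 15.3, 27.6 and 16.2 at DIV2 (log2 change -2.48, SE 0.22, adjusted p = 0.00611), and its OPC levels were alike in the 3 clones. Fos, an immediate-early gene that also responds to handling, was not called: it stood at 56.5, 325 and 77.96 in OPCs and 35.9, 57.1 and 41.8 at DIV2, with the highest level in D3 OPCs.

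The mitosis list had the lowest median of the 36 lists, and its clone medians differed widely. Of 44 mitosis genes, 31 were called lower and none higher (median -3.52: -4.93 in D7, -0.87 in D3 and -4.71 in E8). The lower calls numbered 0 without D7, 42 without D3 and 4 without E8. Top2a, the topoisomerase that untangles chromosomes, stood at 563, 20.6 and 358 in OPCs and 5.62, 11.4 and 6.34 at DIV2 (log2 change -4.27, SE 1.05, adjusted p = 0.0424). D7 and E8 fell steeply and D3, which began low, fell little. Without D3 the change was -6.01 (adjusted p = 8.82e-06). Mki67 stood at 100.4, 5.27 and 127 in OPCs and 0.9997, 2.75 and 1.37 at DIV2, a change of -4.05 (SE 1.003, adjusted p = 0.0438), and of -5.67 (adjusted p = 1.22e-05) without D3. Cdk1, the mitotic kinase, went from 272, 16.8 and 239.7 to 4.11, 10.3 and 5.04 (log2 change -3.903, SE 0.98, adjusted p = 0.0449). Ube2c, the ubiquitin enzyme of the anaphase-promoting complex, went from 258, 31.5 and 255.5 to 4.26, 6.39 and 4.497 (log2 change -4.43, SE 0.701, adjusted p = 0.0161). Birc5, the chromosomal passenger survivin, changed by -4.55 (SE 0.85, adjusted p = 0.0233), Kif11, the spindle motor, by -4.298 (SE 0.85, adjusted p = 0.026), and Cdc20, the activator of anaphase, by -4.18 (SE 0.75, adjusted p = 0.0209). Ccnb1, the mitotic cyclin, fell by 4.65 (SE 0.83, adjusted p = 0.0211) and is uncertain, with 27.7% of its 31-base words shared. At DIV2, D3 held the highest level of each of these 8 genes.

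S phase genes fell when D7 and E8 were taken alone, and had a median change near 0 in D3. Of 40 tested, 6 were called lower over the 3 clones and 38 without D3, while limma called 0 without D7 and 0 without E8. The clone medians were -3.11 in D7, 0.16 in D3 and -3.07 in E8. The summed level went from 2960.0 to 408 in D7, from 2799 to 424 in E8, and from 481 to 488 in D3. Prim1, the DNA primase subunit, stood at 85.5, 16.2 and 60.4 in OPCs and 3.404, 6.53 and 5.96 at DIV2 (log2 change -2.88, SE 0.57, adjusted p = 0.0263), and Rfc3, of the clamp loader, at 124, 18.99 and 105 in OPCs and 10.3, 9.703 and 8.64 at DIV2 (log2 change -2.61, SE 0.54, adjusted p = 0.0281). Gins1, of the replicative helicase, changed by -2.44 (SE 0.63, adjusted p = 0.048). Uhrf1, which copies DNA methylation, changed by -3.96 (SE 0.87, adjusted p = 0.0325) and is uncertain, with 24.2% of its 31-base words shared.

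Of 24 genes that control the G1 phase, 6 were called lower and none higher; the lower calls numbered 1 without D7, 11 without D3 and 3 without E8, with 1 called higher without D3. The median was -0.65, and 0.00697 under an equal coding total. Ccnd1, the D cyclin induced by mitogens, stood at 349.9, 50.7 and 522 in OPCs and 6.41, 21.3 and 12.9 at DIV2 (log2 change -4.004, SE 0.84, adjusted p = 0.0295). Here too D3 OPCs lay lowest of the OPC libraries, and above every DIV2 library. Cdk6, a partner of D cyclins, changed by -2.18 (SE 0.41, adjusted p = 0.0229), and the growth-arrest genes Btg2 and Gas1 by -3.17 (SE 0.46, adjusted p = 0.0138) and -2.97 (SE 0.39, adjusted p = 0.0112). Cdkn1b, the CDK inhibitor p27, which is known to accumulate as protein in cells leaving the cycle, was not called: its levels were 73.4, 117 and 75.5 in OPCs and 62.3, 78.2 and 64.9 at DIV2 (log2 change -0.34, SE 0.17, adjusted p = 0.212). Cdkn1a (p21) stood at 15.5, 5.09 and 84.5 in OPCs and 3.73, 7.05 and 11.7 at DIV2 and was not called (log2 change -1.38, SE 0.59, adjusted p = 0.153). No CDK inhibitor of the list was called higher. Of 18 p53 targets tested, 4 were called lower and none higher, against 9.01% of all genes called lower. The lower calls numbered 2 without D7, 6 without D3 and 2 without E8, with 1 called higher without D3. The genes called lower with all 3 clones included Plk2 (log2 change -2.705, SE 0.502, adjusted p = 0.0228), Eda2r (log2 change -2.36, SE 0.49, adjusted p = 0.0292) and Sesn2 (log2 change -2.03, SE 0.24, adjusted p = 0.00951).

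The promoters of 3 mitosis genes are shown because genes of this list are known to share the cell cycle homology region (CHR, TTTGAA) and CCAAT boxes. Capitals mark both words on either strand in the 150 bases before the RefSeq start (GRCm38.p6):
Cdc20 (chr4:118437344-118437493, minus strand): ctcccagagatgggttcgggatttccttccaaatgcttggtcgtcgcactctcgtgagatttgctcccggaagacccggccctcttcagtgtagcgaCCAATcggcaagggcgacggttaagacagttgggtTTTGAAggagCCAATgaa
Kif11 (chr19:37376232-37376381, plus strand): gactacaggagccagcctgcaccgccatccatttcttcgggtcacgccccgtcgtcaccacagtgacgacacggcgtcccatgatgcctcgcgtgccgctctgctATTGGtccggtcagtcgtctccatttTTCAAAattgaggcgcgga
Ube2c (chr2:164769779-164769928, plus strand): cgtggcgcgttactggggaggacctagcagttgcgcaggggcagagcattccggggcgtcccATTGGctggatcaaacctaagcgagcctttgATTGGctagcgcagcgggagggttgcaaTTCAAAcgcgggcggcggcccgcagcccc
In each of the 3 the CHR word lies within 30 bases of the start, and a CCAAT box lies on the far side of it. Over the 250 bases before the start, 15 of 40 promoters of 37 matched mitosis genes held the CHR word (37.5%) and 30 a CCAAT box (75%). Overlapping promoters of Bub3 and of Ect2 hold the same CHR word and were counted separately. The shares over 32851 promoters of all genes were 16% and 33.8%, and over promoters of tested genes 10% and 36.1%. For 32 matched S phase genes, 9 of 38 promoters (23.7%) held an E2F word (TTTCCCGC, TTTCGCGC, TTTGCCGC or TTTGGCGC), against 1.86% of all promoters and 3.35% of those of tested genes. None of these words is contained in another.

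Lipid synthesis genes rose in part. Of 24 tested genes of cholesterol synthesis and its control, 9 were called higher and none lower, with a median of 0.68 (0.46 in D7, 1.14 in D3 and 0.69 in E8). The calls numbered 0 without D7, 11 without D3 and 4 without E8, and 15 under an equal coding total without Lars2 and AA474408. Hmgcs1 (ENSMUSG00000093930, chromosome 13, 119690379 to 119708260, plus strand), which makes HMG-CoA at the head of the pathway, stood at 398, 204 and 309 in OPCs and 698, 641 and 782 at DIV2 (log2 change 1.26, SE 0.22, adjusted p = 0.0198). Hsd17b7, a late ketosteroid reductase, had the largest change, 2.94 (SE 0.39, adjusted p = 0.0114), from 19.1, 9.57 and 23.1 to 153, 167 and 89.5. D3, the clone with the narrowest changes over all genes, had the lowest OPC levels and the largest changes in both genes. The methyl oxidase gene Msmo1 (listed as Sc4mol) and the isomerase gene Ebp changed by 1.202 (SE 0.17, adjusted p = 0.0126) and 1.22 (SE 0.27, adjusted p = 0.035). Insig1, a brake on the pathway, was called higher as well (log2 change 0.92, SE 0.18, adjusted p = 0.0239). Srebf2, the factor that drives these genes, was not called, at 61.02, 33.98 and 85.8 in OPCs and 47.2, 43.2 and 51.2 at DIV2 (log2 change -0.25, SE 0.25, adjusted p = 0.497).

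**Figure D4:**
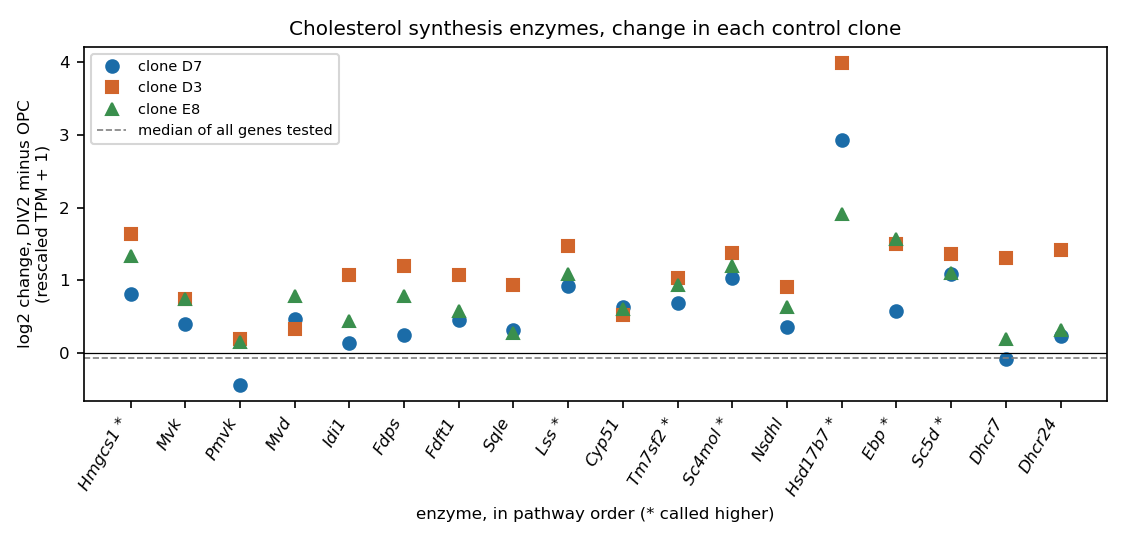
Log2 change from OPC to DIV2 (y axis) of 18 cholesterol synthesis enzymes in pathway order (x axis), with 1 point per clone, 0 as a solid line and the median of all genes as a dashed line. Hsd17b7 stands highest in every clone, D3 (squares) lies above D7 in most enzymes, and the enzymes marked with an asterisk were called.

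The promoter of Hmgcs1 is shown because the SREBP factors bind sterol elements there. Capitals mark the word TCACNCCAC and CCAAT boxes on either strand (RefSeq, GRCm38.p6):
Hmgcs1 (chr13:119690201-119690350, plus strand): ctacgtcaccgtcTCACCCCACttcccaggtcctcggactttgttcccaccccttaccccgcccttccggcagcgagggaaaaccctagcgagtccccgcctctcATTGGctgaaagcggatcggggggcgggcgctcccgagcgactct
Of 20 promoters of 17 matched genes of the list, 1 held the sterol word (5%), against 1.05% of all promoters and 0.966% of those of tested genes, and 16 held a CCAAT box (80%), against 33.8% and 36.1%.

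Of 23 tested fatty acid genes, 9 were called higher and 1 lower, with higher calls of 1 without D7, 11 without D3 and 4 without E8. Elovl7, an elongase of long saturated chains, stood at 17.03, 34.6 and 6.26 in OPCs and 249, 148 and 201 at DIV2 (log2 change 3.55, SE 0.498, adjusted p = 0.0127). Elovl1, which makes the very long chains of myelin lipids, rose by 1.49 (SE 0.25, adjusted p = 0.0187), and the acyl-CoA synthetases Acsl1 and Acsl3 by 2.19 (SE 0.22, adjusted p = 0.0073) and 1.34 (SE 0.17, adjusted p = 0.00996). Elovl2, an elongase of polyunsaturated chains, was the member called lower (log2 change -2.198, SE 0.46, adjusted p = 0.0298). Of 20 galactolipid and sphingolipid genes, 6 were called higher and 1 lower, with higher calls of 3 without D7, 10 without D3 and 4 without E8. Ugt8a, which makes galactocerebroside, stood at 87.3, 139 and 40.1 in OPCs and 1435, 724 and 971 at DIV2, with no overlap between stages (log2 change 3.65, SE 0.42, adjusted p = 0.00894). Fa2h, which hydroxylates its fatty acid, rose by 3.12 (SE 0.53, adjusted p = 0.0188), Sgms2, a sphingomyelin synthase, by 4.37 (SE 0.38, adjusted p = 0.00582), and Degs1 and Cers2, which make ceramide, by 1.83 (SE 0.16, adjusted p = 0.00591) and 1.201 (SE 0.17, adjusted p = 0.0133). Gal3st1, which makes sulfatide from galactocerebroside, stood at 64.6, 98.9 and 12.4 in OPCs and 191, 148 and 179.7 at DIV2 and missed the threshold (log2 change 1.96, SE 0.57, adjusted p = 0.0656), with a change of 2.64 (adjusted p = 0.00395) without D3. Smpd3, a neutral sphingomyelinase, fell by 1.57 (SE 0.301, adjusted p = 0.024).

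Lysosomal genes rose in part. Of 31 tested, 15 were called higher and none lower (median 0.796: 0.81 in D7, 0.51 in D3 and 0.75 in E8), and the calls numbered 1 without D7, 16 without D3 and 4 without E8. Tfeb, the factor that drives lysosomal genes, stood at 5.98, 10.4 and 13.4 in OPCs and 67.1, 55.7 and 72.7 at DIV2, and its 3 DIV2 levels lay close together (log2 change 2.65, SE 0.27, adjusted p = 0.0073). Ctsl, a cysteine protease, went from 54.4, 129 and 36.9 to 215, 263 and 188 (log2 change 1.77, SE 0.28, adjusted p = 0.0157), Neu1, a sialidase, changed by 1.63 (SE 0.26, adjusted p = 0.0168), and the membrane protein gene Lamp1 by 1.41 (SE 0.18, adjusted p = 0.0107). The glycosaminoglycan-degrading enzymes of the list were among the 16 not called, such as Gusb at 18.6, 16.2 and 16.3 in OPCs and 18.4, 15.5 and 10.1 at DIV2 (log2 change -0.23, SE 0.24, adjusted p = 0.522) and Idua (log2 change -0.62, SE 0.32, adjusted p = 0.22). Galc and Arsa, which degrade galactocerebroside and sulfatide, were not called either, at 0.13 (SE 0.27, adjusted p = 0.759) and -0.05 (SE 0.31, adjusted p = 0.922).

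Genes of process outgrowth moved in both directions. Of 30 tested, 9 were called higher and 4 lower, with higher calls of 5 without D7, 12 without D3 and 8 without E8 and lower calls of 0 without D7, 9 without D3 and 0 without E8. Tppp, which nucleates microtubules in oligodendrocyte processes, stood at 9.05, 11.3 and 12.5 in OPCs and 582, 205 and 367 at DIV2 (log2 change 4.897, SE 0.35, adjusted p = 0.00465). Sept4, a septin of myelin, Map1b, a microtubule-associated protein, and Tubb4a, the tubulin of oligodendrocytes, rose by 4.79 (SE 0.49, adjusted p = 0.0073), 3.53 (SE 0.297, adjusted p = 0.00526) and 3.01 (SE 0.19, adjusted p = 0.00465). Stmn1, which destabilises microtubules, fell by 1.41 (SE 0.29, adjusted p = 0.0271) and is uncertain, with 22.4% of its 31-base words shared. Sept8, another septin, fell by 1.27 (SE 0.27, adjusted p = 0.0302). Cttnbp2, a cortactin-binding protein, changed by -1.36 (SE 0.34, adjusted p = 0.0454), with an adjusted p of 0.0643 without D3. Map2, a microtubule-associated protein, changed by -0.66 (SE 0.17, adjusted p = 0.0486), but was at 0.085 under an equal coding total.

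Of 23 tested adhesion and axon-contact genes, 13 were called higher and 3 lower, with higher calls of 4 without D7, 15 without D3 and 9 without E8, and lower calls of 0 without D7, 5 without D3 and 0 without E8. Sema5a, a guidance protein, went from 0.358, 1.77 and 1.08 to 72.4, 53.8 and 68.4 (log2 change 5.04, SE 0.34, adjusted p = 0.00465). Plxnb3, a semaphorin receptor of the lineage, went from 64.01, 106 and 23.4 to 413, 357 and 384 (log2 change 2.796, SE 0.41, adjusted p = 0.014), and Sema4d and Unc5b changed by 2.95 (SE 0.34, adjusted p = 0.00884) and 3.43 (SE 0.49, adjusted p = 0.0133). Cntn1, a contactin, Itgb8, an integrin, and Lrp1, an endocytic receptor, changed by -1.14 (SE 0.22, adjusted p = 0.0249), -1.104 (SE 0.19, adjusted p = 0.0198) and -1.15 (SE 0.27, adjusted p = 0.0372). Among 23 matrix genes, 5 were called higher and 4 lower. Higher calls numbered 3 without D7, 7 without D3 and 3 without E8, and lower calls 1 without D7, 8 without D3 and 3 without E8. Over all genes 9.43% were called higher and 9.01% lower, and 15.4% and 19% without D3. Adamts4, a protease that cleaves proteoglycans and marks mature oligodendrocytes, stood at 6.96, 10.3 and 9.54 in OPCs and 159.96, 124 and 206 at DIV2, with no overlap (log2 change 4.03, SE 0.24, adjusted p = 0.00465). The collagen genes Col11a2 and Col9a3 rose by 2.96 (SE 0.28, adjusted p = 0.00672) and 2.37 (SE 0.25, adjusted p = 0.00748). The proteoglycan gene Ncan changed by -1.305 (SE 0.22, adjusted p = 0.019) and the protease inhibitor gene Timp4 by -2.21 (SE 0.47, adjusted p = 0.0305).

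Most ion channel and receptor genes were not called, and the calls went in both directions, beside 9.43% of all genes called higher and 9.01% lower. Of 16 potassium channels tested, 3 were called higher and 3 lower; the higher calls numbered 2 without D7, 3 without D3 and 3 without E8, and the lower 0 without D7, 4 without D3 and 1 without E8. Kcna1, the Kv1.1 channel, stood at 0.179, 0.7698 and 1.83 in OPCs and 130.5, 142 and 117 at DIV2 (log2 change 6.17, SE 0.33, adjusted p = 0.00332), and Kcna5 and Kcna2 rose by 3.95 (SE 0.32, adjusted p = 0.00494) and 2.01 (SE 0.29, adjusted p = 0.0137). Kcnk10, Kcnj16 and Kcnd2 changed by -2.16 (SE 0.42, adjusted p = 0.0257), -1.94 (SE 0.45, adjusted p = 0.037) and -1.89 (SE 0.24, adjusted p = 0.0107). Kcnj10, the Kir4.1 channel of glia, was not called (log2 change 0.72, SE 0.21, adjusted p = 0.063). Of 19 glutamate and GABA receptor genes, 2 were called higher and 3 lower; the higher calls numbered 1 without D7, 4 without D3 and 2 without E8, and the lower 0 without D7, 6 without D3 and 1 without E8. The share called higher with all 3 clones is near that over all genes. The metabotropic receptor gene Grm7 stood at 0.474, 2.11 and 0.334 in OPCs and 163, 69.7 and 109 at DIV2 (log2 change 5.89, SE 0.47, adjusted p = 0.00494), while Grm5 stood at 33.4, 35.6 and 95.3 in OPCs and 1.02, 15.3 and 21.1 at DIV2 (log2 change -2.46, SE 0.54, adjusted p = 0.0333). The kainate receptor subunits went apart: Grik2 rose from 13.01, 12.6 and 14.2 to 35.4, 36.7 and 37.4 (log2 change 1.395, SE 0.197, adjusted p = 0.0128), with its clones nearly equal at each stage, and Grik1 fell by 2.48 (SE 0.42, adjusted p = 0.0191). Grin3a, an NMDA receptor subunit, fell by 1.796 (SE 0.42, adjusted p = 0.0375). Of 19 tested receptors coupled to G proteins, 5 were called higher and 4 lower. The higher calls numbered 2 without D7, 6 without D3 and 4 without E8, and the lower 0 without D7, 4 without D3 and 1 without E8. Some of these receptors, such as Gpr37, Gpr37l1 and P2ry12, are also counted in other lists. Lpar1, a receptor for lysophosphatidic acid, went from 0.242, 0.642 and 0 to 46.9, 32.6 and 61.1 (log2 change 5.19, SE 0.38, adjusted p = 0.00465). Of the receptors for sphingosine phosphate, S1pr5 rose by 2.92 (SE 0.46, adjusted p = 0.0162) and S1pr2 fell by 2.44 (SE 0.57, adjusted p = 0.0375). Gpr56, a receptor that keeps OPCs dividing, fell by 1.802 (SE 0.35, adjusted p = 0.0246). The orphan receptor gene Gprc5b changed by -2.09 (SE 0.47, adjusted p = 0.0342), and the adhesion receptor gene Lphn3 by -0.69 (SE 0.16, adjusted p = 0.0394), though Lphn3 was at 0.045 under an equal coding total.

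Genes of growth, metabolism, stress and chromatin are given by list. The counts stand beside 9.43% of all genes called higher and 9.01% lower, and 15.4% and 19% without D3. Of 30 ribosome biogenesis genes, 13 were called lower and none higher (median -0.83: -0.97 in D7, -0.66 in D3 and -0.90 in E8), and the calls numbered 0 without D7, 18 without D3 and 1 without E8. Dkc1, the pseudouridine synthase, changed by -1.66 (SE 0.27, adjusted p = 0.0167), and Nob1, which matures the small subunit, by -1.21 (SE 0.25, adjusted p = 0.0282). The nucleolar genes Fbl and Npm1 changed by -1.35 (SE 0.22, adjusted p = 0.0168) and -1.32 (SE 0.19, adjusted p = 0.0127), both uncertain. Of 31 nuclear-encoded respiratory chain genes none was called in either direction by limma (2 at an unadjusted p under 0.05; 2 higher and 1 lower without D3), with changes from -0.64 to 0.55. Of 16 tested genes of the citric acid cycle and its regulation, 2 were called lower, near the 9.01% over all genes, and none higher (1 without D3). The lower calls were Idh3g (log2 change -1.27, SE 0.18, adjusted p = 0.0127) and Suclg2, uncertain (log2 change -1.28, SE 0.28, adjusted p = 0.0315). Among 21 glycolysis genes, Pgk1 was called higher and Ldhb lower, both uncertain because they share sequence with other genes; without D3, 1 was called higher and 6 lower. With all 3 clones the glycolysis counts lie below the shares over all genes, 9.43% higher and 9.01% lower. Of 24 stress response genes, 1 was called higher, the ER degradation gene Edem1 (log2 change 1.08, SE 0.21, adjusted p = 0.0257), and 2 lower, the serine synthesis gene Phgdh, uncertain (log2 change -2.34, SE 0.203, adjusted p = 0.0057), and Sesn2; without D3, 2 were called higher and 5 lower. Of 31 chromatin genes, 8 were called lower and 1 higher; the lower calls numbered 0 without D7, 13 without D3 and 2 without E8. The list's median was -0.47, and 0.15 under an equal coding total. The falls included Lmnb1, the nuclear lamin (log2 change -2.301, SE 0.38, adjusted p = 0.0183), and the histone gene H2afx (log2 change -3.09, SE 0.59, adjusted p = 0.0241), with low D3 OPC levels in both; Hmgb2 and H2afz, uncertain, changed by -2.95 (SE 0.68, adjusted p = 0.0366) and -1.99 (SE 0.27, adjusted p = 0.0119). Dnmt3a, a DNA methyltransferase, was the member called higher (log2 change 0.97, SE 0.17, adjusted p = 0.0206). Of 15 iron genes, 1 was called higher, Trf, and 1 lower, also below the shares over all genes; 4 were called higher without D3, and 3 under an equal coding total without Lars2 and AA474408. Of 9 interferon response genes none was called by limma (0 at an unadjusted p under 0.05).

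Markers of microglia and of mesenchymal and vascular cells were low, and those of astrocytes were not. The summed level of 10 microglia markers lay between 1.16 and 3.93 in OPCs and between 6.08 and 6.33 at DIV2, with 4 of them, including Tmem119 and C1qa, listed at 0 in all 6 libraries. P2ry12 was the only tested microglia marker, and it rose (log2 change 1.96, SE 0.41, adjusted p = 0.0299). Mesenchymal and vascular markers summed to at most 4.53, with 5 of 10 at 0 throughout. Neuron markers summed to 14.1 to 63.4 and none of 6 tested was called by limma (2 at an unadjusted p under 0.05). Of 10 astrocyte markers tested, S100b, which oligodendrocytes also express, was called higher (log2 change 2.26, SE 0.39, adjusted p = 0.0192). Gfap, the astrocyte filament, differed between clones: it stood at 0.9599, 22.1 and 2.72 in OPCs and 0.0467, 69.9 and 69.2 at DIV2 and was not called. The astrocyte sum was 242, 584 and 310.4 in OPCs and 422, 1041 and 662 at DIV2. Of 5 Schwann cell genes tested, Egr2 was called lower (log2 change -2.72, SE 0.66, adjusted p = 0.0413). The part of these markers in the results was not tested.

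From DIV2 to DIV4 in the same clones, no gene of 12513 tested was called by limma (0%); 1958 had an unadjusted p under 0.05, and the smallest adjusted p was 0.0941. Without D7 446 genes were called, and without E8 1. This comparison shares the DIV2 libraries with the one above. For the members described, Mbp changed by 0.35 (SE 0.45), Mag by -0.092 (SE 0.504), Klf9 by -0.036 (SE 0.29) and Enpp6 by -0.99 (SE 0.35). The clones differed at DIV4, so a mean change near 0 need not hold in each clone. On the scale of all 18 libraries, in the order D7, D3 and E8, Mag stood at 2403, 495 and 453 at DIV4. Mbp stood at 21207, 4064 and 2922. Pdgfra changed by 1.69 (SE 0.58), Cspg4 by 1.81 (SE 0.45) and Ccnd1 by 1.69 (SE 0.303), values above 0 for genes that fell from OPC to DIV2. The median of the mitosis list was 1.31 and that of the cholesterol list -0.68.

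Whether the change from OPC to DIV2 differed from that of the Thap1 null clones was tested in 1 fit over 12 libraries, which share no library between genotypes. Of 12193 genes, 2 were called (0.0164%), Gm17530 and Gm11175 (not called in 4 of 10 alternatives), and 1844 had an unadjusted p under 0.05; without D3, 491 were called. The mitosis list had median changes of -4.93 in D7, -0.87 in D3 and -4.71 in E8 in control and -4.16, -3.10 and -3.40 in the null clones 3F, D6 and 7F. For the myelin list they were 3.09 in D7, 2.05 in D3 and 3.27 in E8 in control and 2.41, 2.13 and 1.91 in null. Mag differed by 1.37 (SE 0.59, adjusted p = 0.334), Myrf by 1.501 (SE 0.64, adjusted p = 0.329) and En1 by -4.38 (SE 0.603, adjusted p = 0.0712).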

How the data were processed

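RNA-seq of total RNA was measured in 18 libraries of control and Thap1 null OPC clones, made with a stranded total RNA kit with ribosomal RNA removal, per the labels' protocols. The authors deposited transcript abundances as TPM in 1 table for the whole series; STAR, Picard and mm10 are named in the submitters' processing notes, and the quantifier and annotation are not given in the sources used here. Read depth is therefore unknown, and no count test could be run.

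TPM were summed by gene name over protein-coding transcripts, 25 names that a spreadsheet had turned into dates were restored from transcript IDs, and libraries were rescaled by the median of ratios over genes above 0 in all libraries. Genes with a mean of at least 1 rescaled TPM over the 6 libraries were tested on log2(value + 1), computed from the deposited TPM, with limma 3.58.1 (R 4.3.3, mean trend, clone as a fixed block), with Benjamini-Hochberg adjustment over all genes tested. Stages of a clone are paired by the labels: the correlations of their deviations from the stage means were 0.339 (D7), 0.0404 (D3) and 0.217 (E8). Other steps used Python 3.11.15. On simulated data of 11567 genes the DIV2 against OPC fit recovered 38 of 100 genes changed by 1 log2 unit and 93 of 100 changed by 2, and it called 25 unchanged genes. Noise was drawn for each gene on its own. A joint shift of many genes in 1 library, as in the D3 OPCs, was therefore not simulated.

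Gene IDs, coordinates (GRCm38) and 31-base words shared between genes came from GENCODE M21, which matched 96.5% of transcripts. Gene lists and members were chosen with earlier results of these data known. The genes named were fixed anchors, the 10 largest rises and 10 largest falls among called genes with a mean of at least 10 rescaled TPM at the higher stage and under 10% shared words, up to 4 called members of each list in each direction, and the called genes of the control minus null comparison. Others, such as members that were not called and genes chosen for their role, were named after their values were seen. Some genes of the rule and lists are not reported here. Alternatives changed the scaling, pseudocount, filter, features summed, trend, block and clones.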

Additional observations from a re-analysis of the deposited data

Results flagged for a closer look

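The change from OPC to DIV2 differed between control and Thap1 null clones for 2 predicted genes, by a limma test of the difference itself over 12 libraries. For Gm11175 the control change minus the null change was -5.82 (SE 0.49, adjusted p = 0.0274). This call was lost with a filter of 5 (adjusted p = 0.0535), no filter (0.138), a pseudocount of 0.1 (0.0627) and without E8 (0.0716), and over all 10 alternatives the adjusted p ran from 0.000849 to 0.138. On the scale of all 18 libraries Gm11175 stood at 32.1, 64.6 and 106 in the control OPC libraries D7, D3 and E8. It was at most 0.00414 in the control DIV2 libraries and in the null libraries of both stages. For Gm17530 the difference was 4.38 (SE 0.26, adjusted p = 0.00443), called in all 10 alternatives (adjusted p from 5.75e-05 to 0.039). No share of 31-base words was available for this gene, so reads split with other genes could not be checked. Gm17530 was listed at 0 in all 3 control OPC libraries, so no fold is given, and stood at 40.1, 33.7 and 37.5 in the null OPC libraries 3F, D6 and 7F. At DIV2 it stood at 46.7, 33.2 and 31.4 in control and 65.6, 49.1 and 72.6 in null. Every control clone moved the same way in both genes. The control OPC libraries are also those in which coding genes held 5.05% to 9.003% of TPM and Lars2 and AA474408 17.5% to 52.1% of the coding TPM; the part of this in either gene was not tested.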

How the results depend on the processing

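Of 2231 genes called between OPC and DIV2, the number moved to 4383 under an equal coding total (3877 higher, 506 lower), to 9513 with no rescaling, to 1217 with all biotypes summed (707 higher, 510 lower), to 1442 without the mean trend (758 higher, 684 lower), and to 5301 in a fit to all 18 libraries with the replicate block (2558 higher, 2743 lower). With no filter limma called 0 genes, 0 higher and 0 lower (4814 at an unadjusted p under 0.05), over 17888 genes. Without the replicate block 2452 were called. Leaving out a clone gave 211 (without D7) to 4149 (without D3), with 151 to 1859 higher and 60 to 2290 lower. A pseudocount of 0.1 (2208), a filter of 5 (2194) and quantile normalization (2275) stayed within 1.5 times, as did the equal total without Lars2 and AA474408 (2408), an alternative chosen after seeing the data.

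From DIV2 to DIV4, leaving out a clone gave 0 (without D3) to 446 (without D7), with 1 without E8. For control minus null, the 2 calls became 1 (Gm17530, with Gm11175 lost) with a filter of 5, 1 with no filter, 1 with a pseudocount of 0.1, 6 without the replicate block and 8 under an equal coding total, and 1 (without E8) to 491 (without D3) on leaving out a clone.

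Under an equal coding total the sign turned for the called genes Map2 (0.085) and Lphn3 (0.045), and for 1 named gene that was not called. It also turned for the medians of receptor tyrosine kinases (0.18), G1 control (0.00697), stress response (0.38), potassium channels (0.32), glutamate and GABA receptors (0.27) and chromatin (0.15). These 6 medians stayed below that of all genes, 0.63. Another 22 list medians moved under that total, and 8 stayed the same. Medians near 0 among the 22 may have turned sign too. The potassium channel median also turned with all biotypes summed (0.50), a filter of 5 (0.037) and ranged from -0.51 (without D3) to 0.023 (without E8) on leaving out a clone, and that of neuron markers with all biotypes summed (0.058). Of 145 named genes, 99 missed the threshold without D7, 56 without E8, 1 (Cttnbp2) without D3, 142 with no filter, 37 without the mean trend, 37 with all biotypes summed, 24 without the block, 19 under an equal coding total, 6 under that total without Lars2 and AA474408, 4 under quantile normalization and 2 with a pseudocount of 0.1. Beyond what each alternative changes by construction (scaling, genes tested, samples), the cause was not tested.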
